A study of Mus musculus with 208 samples.

Results

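The genes described here encode the nuclear-encoded subunits of oxidative phosphorylation (OXPHOS), the 5 complexes of the inner mitochondrial membrane that oxidize NADH and succinate, pump protons and make ATP. Members were chosen by symbol alone, as the Nduf, Sdh, Uqcr, Cox and Atp5 families of the count tables without pseudogene symbols and with a total count above 10 in the region tested. In all, 84 of the 46403 listed symbols matched, of which 37 belong by name to complex I, 4 to complex II, 8 to complex III, 18 to complex IV and 17 to complex V. The count filter kept 83 hypothalamic, 80 hippocampal, 80 prefrontal (PFC) and 81 striatal members.

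Complex I takes electrons from NADH and complex II from succinate, complex III passes them to cytochrome c, complex IV hands them to oxygen, and complex V uses the proton gradient to phosphorylate ADP. Most subunits are nuclear genes whose proteins are imported and built around a small core encoded by mitochondrial DNA. In neurons this pathway supplies most of the ATP for ion pumping and synaptic transmission.

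The data were read counts from nuclear RNA of sorted NeuN+ (neuronal) nuclei of wild-type C57BL/6NTac mice, with 1 animal per library. By their replicate names the 208 libraries came from 71 animals, and these names carry 18 litter numbers. Dams carried a minipump that gave saline or morphine (10 mg/kg daily), pups were fostered to surrogates without drug and injected under the skin with saline or morphine (10 mg/kg) until the end of the second postnatal week, and as adults they received lipopolysaccharide (LPS, a bacterial endotoxin) or saline 2 h before collection. The groups are named by exposure and then challenge. SAL-SAL held 11 hypothalamic, 13 hippocampal, 10 PFC and 13 striatal libraries and MOR-SAL 14, 12, 12 and 8, while SAL-LPS held 12, 14, 10 and 15 and MOR-LPS 14, 16, 16 and 18. Each litter number held 1 exposure only, so no comparison of exposures can be made within a litter.

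A hypothalamic library had a median total of 5543589 counts (from 7673 to 35077048), a hippocampal one 9184251 (from 227025 to 24071488), a PFC one 9667628 (from 3056648 to 21988203) and a striatal one 10849924 (from 5954700 to 92945090). Members took 0.362%, 0.288%, 0.353% and 0.215% of all counts in these regions. Low-depth libraries, with under 0.5 of their region's median total, numbered 3, 2, 3 and 0. The sum of 4 Y-linked genes (Ddx3y, Uty, Kdm5d and Eif2s3y) went against the labelled sex, at a limit of 20 CPM (counts scaled to a common library total), in 3 hypothalamic, 4 hippocampal, 2 PFC and 0 striatal libraries. The hippocampal MOR-SAL library 7-2, labelled female, had 111 CPM of these Y-linked genes, and several results below rest on it. The neuronal markers Rbfox3 (which encodes the NeuN antigen), Snap25, Syt1 and Map2 were present in every region, with medians of at least 469 CPM apart from Rbfox3, whose median was 137 CPM in hypothalamic, 1310 in hippocampal, 2190 in PFC and 1170 in striatal libraries.

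The subunits were not equally abundant. Levels are compared between genes as normalized CPM per kilobase of exon (CPM per kb), averaged over the SAL-SAL means of the 4 regions, for the 79 members with a length and counts in all regions. By this mean the highest were the small complex IV subunit Cox6a1 with 69.1 CPM per kb, Atp5b (the catalytic beta subunit of ATP synthase, 68.9 CPM per kb) and Uqcr11 (a small subunit of complex III, 63.8 CPM per kb), and differences between genes were not tested. The order changed between regions, since Atp5b was above Cox6a1 in hypothalamic (75.8 against 38.0 CPM per kb) and hippocampal libraries (72.2 against 59.4 CPM per kb), and the mean of Uqcr11 rests on 159 CPM per kb in the PFC, with 18.1 in the hypothalamus. In complex V the alpha subunit Atp5a1 (59.0 CPM per kb) and the rotating gamma subunit Atp5c1 (50.4 CPM per kb) followed Atp5b, and Atp5l (3.5 CPM per kb), Atp5s (a factor linked to ATP synthase and placed here by symbol, 5.64 CPM per kb) and Atp5e (5.88 CPM per kb) had the lowest means. By region, Atp5d (66.9 CPM per kb) was above Atp5b (62.5) in the PFC, where Atp5e had 12.2 CPM per kb, Atp5c1 was above Atp5a1 in the striatum (63.9 against 58.4) and in the hippocampus (57.1 against 56.1), and Atp5e (3.83) was below Atp5l (4.0) in the striatum. The place of Atp5l also rests on its exon length of 6443 bases, against 2039 for Atp5s and 1756 for Atp5e.

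In complex IV, Cox8a (54.5 CPM per kb) and Cox6b1 (48.1 CPM per kb) had the next means after Cox6a1, but Cox8a was above Cox6a1 in the striatum (70.9 against 68.1 CPM per kb) and Cox6b1 above Cox8a in the hippocampus (48.0 against 44.6 CPM per kb). By the same mean complex III was led by Uqcr11, Uqcr10 (41.6 CPM per kb) and the core subunit Uqcrc1 (35.9 CPM per kb), although Uqcrc1 was above Uqcr11 in hypothalamic (39.9 against 18.1 CPM per kb) and hippocampal libraries (40.1 against 39.0 CPM per kb), and its lowest members were Uqcrfs1, the Rieske iron-sulfur protein (18.1 CPM per kb), Uqcrq (15.3 CPM per kb, but 29.3 in the PFC) and Uqcrb (11.7 CPM per kb). Uqcrq was below Uqcrb in the hypothalamus (7.86 against 9.55 CPM per kb) and the striatum (10.9 against 15.2 CPM per kb). In complex I the core subunit Ndufs7 (39.8 CPM per kb) and the accessory subunit Ndufa8 (38.6 CPM per kb) had the highest means, though Ndufa2 was above both in the PFC (80.2 against 46.4 and 46.5 CPM per kb), and Ndufb8 (5.63 CPM per kb), Ndufb2 (2.36 CPM per kb) and Ndufa4l2 (0.0686 CPM per kb) had the lowest. The places of Ndufb8 and Ndufb2 also rest on exon lengths of 3146 and 5628 bases, against 419 for Ndufa1. Without the length, hypothalamic SAL-SAL means were 21.4 CPM for Ndufb8, 24.1 for Ndufb2 and 4.55 for Ndufa1. Complex II, which has only 4 subunits, ran from the flavoprotein Sdha (32.5 CPM per kb) and the iron-sulfur protein Sdhb (28.4 CPM per kb) to the membrane anchors Sdhd (21.4 CPM per kb) and Sdhc (6.09 CPM per kb) by the mean, but Sdhb was above Sdha in the hippocampus (31.4 against 30.1 CPM per kb) and the PFC (37.1 against 21.8 CPM per kb), and Sdha above Sdhb by most in the hypothalamus (47.3 against 16.4 CPM per kb).

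The isoforms that other tissues prefer were near the floor of these libraries. Cox4i2 (a form known from lung and hypoxia) reached 0.41 CPM per kb, Cox6b2 (a testis form) 0.427 CPM per kb, Cox7a1 (a heart and muscle form) 0.528 CPM per kb and Cox8b (another heart and muscle form) 0.975 CPM per kb. The Cox8b mean rests mostly on 2.13 CPM per kb in the hippocampus, against 0.397 in the hypothalamus, 0.453 in the PFC and 0.919 in the striatum. Of their ubiquitous counterparts, Cox8a and Cox6b1 were at the levels given above, and Cox7a2 had 17.6 CPM per kb and its relative Cox7a2l 18.9 CPM per kb. Cox7b2, the testis counterpart of Cox7b, was an exception with 10.7 CPM per kb, and 23.2 CPM per kb in the striatum. Cox8c had 13 counts in all striatal and 2 in all PFC libraries, and 0 elsewhere. Among the genes that encode the identical c-ring subunit of ATP synthase, Atp5g3 (16.4 CPM per kb) had a higher mean than Atp5g1 (10.7 CPM per kb) and Atp5g2 (7.24 CPM per kb).

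Cox4i1, the ubiquitous form of the complex IV subunit 4 and a defining gene of the pathway, was read in the hypothalamus only. Its level there in SAL-SAL libraries ran from 22.1 to 104 normalized CPM (median 73.0), with 65.5 ± 23.7 (SD, n = 11), or 42.3 CPM per kb in libraries normalized within the hypothalamus, the 8th highest of the hypothalamic members on that scale, on which Cox6a1 had 45.3 CPM per kb. Its count was 0 in all 157 libraries of the other regions, and so were those of Ndufa13 (a complex I subunit) and Cox6a2 (the heart and muscle form of Cox6a1), whose hypothalamic totals were 7424 and 251. A count of 0 over those libraries allows up to 0.00157 CPM. In all, 2127 genes had 1000 or more counts in the hypothalamus and 0 in the other 3 regions, and 13 had 0 in the hypothalamus and 1000 or more in each of the others. The glial genes Gfap and P2ry12 and the neighbor of Cox4i1, Emc8 (12346 counts in the hypothalamus), were also at 0 outside the hypothalamus. The hypothalamus and the making of its count table therefore cannot be told apart wherever the hypothalamus is compared with another region.

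The regions were compared in SAL-SAL libraries, in 1 fit over 47 libraries, 15 animals and 19478 genes, 80 of them members. The values that follow are CPM normalized over the 4 regions together, and calls are adjusted p under 0.05 from edgeR's quasi-likelihood test with Benjamini-Hochberg adjustment over all genes tested. Ndufa4, a subunit named for complex I and later assigned to complex IV, had 24.9 ± 17.0 CPM in hypothalamic libraries (SD, n = 11, from 6.99 to 60.8), 34.8 ± 35.5 in hippocampal ones (n = 13, from 16.2 to 148), 48.2 ± 33.6 in PFC ones (n = 10, from 19.7 to 128) and 56.0 ± 54.7 in striatal ones (n = 13, from 12.9 to 199). These ranges overlapped, and no pair of the 3 forebrain regions passed the test for Ndufa4 (adjusted p from 0.236 to 0.907, edgeR), while the hypothalamus was lower than their mean (log2FC -0.95, SE 0.365, adjusted p 0.0294, edgeR). Atp5b had 321 ± 121 CPM in hypothalamic, 306 ± 208 in hippocampal, 265 ± 126 in PFC and 276 ± 204 in striatal libraries, and none of the 4 comparisons passed for it (adjusted p from 0.64 to 0.986, edgeR).

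Of 80 members, 8 were called lower in the striatum than in the PFC and 8 lower in the hippocampus than in the PFC, beside 6.21% and 7.72% of all genes tested. Uqcr11 had a median of 43.8 CPM in the PFC (from 19.3 to 303), against 17.9 in the striatum (from 8.18 to 73.9) and 20.6 in the hippocampus (from 9.19 to 83.0). The PFC values reached far above the others, while their lower ends overlapped. Its log2FC against the PFC was -2.11 (SE 0.428, adjusted p 0.000744, edgeR) in the striatum and -2.13 (SE 0.431, adjusted p 0.000544, edgeR) in the hippocampus. Ndufs6, an accessory subunit of the NADH-binding arm of complex I, had a median of 35.3 CPM in the PFC (from 12.0 to 143), 15.3 in the striatum (from 12.0 to 42.9) and 15.9 in the hippocampus (from 4.72 to 63.4). Its log2FC was -1.44 (SE 0.354, adjusted p 0.00498, edgeR) and -1.54 (SE 0.357, adjusted p 0.00249, edgeR).

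The 8 members called lower in the striatum were Uqcr11, Ndufa2 (log2FC -1.86, adjusted p 0.00941), Ndufb7 (log2FC -1.69, adjusted p 0.00869), Atp5e (the epsilon subunit of ATP synthase, log2FC -1.66, adjusted p 0.0136), Uqcrq (log2FC -1.49, adjusted p 0.00681), Ndufs6, Atp5d (the delta subunit of ATP synthase) and Ndufv1 (the subunit that binds NADH), all by edgeR. Called higher were 2 of 80, beside 6.86% of all genes. Cox7b2 had a median of 12.4 CPM in the striatum (from 2.84 to 38.3) and 2.69 in the PFC (from 0 to 9.59), with a log2FC of 2.14 (SE 0.738, adjusted p 0.0444, edgeR), and was no longer called in 14 of the 23 fits that left out 1 library. Cox6b2 (adjusted p 0.0269, edgeR) had a median of 0.264 CPM in the striatum and counts in 1 of 10 PFC libraries, so no fold is given for it, and calls at so few counts are uncertain. At an unadjusted p under 0.05 edgeR gave 17 members lower (21.2%), beside 11.6% of all genes, and 7 higher (8.75%), beside 15.7%. The median over members was -0.21 and that over all genes 0.13 on the log2 scale.

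In the hippocampus 0 of 80 members were called higher than in the PFC, beside 5.90% of all genes (1 called by DESeq2). At an unadjusted p under 0.05 edgeR gave 4 members higher (5%), beside 14.1% of all genes, and 18 lower (22.5%), beside 14.0%. Among those called lower, Ndufa2 (log2FC -2.26, adjusted p 0.00161), Uqcr11, Atp5k (subunit e of ATP synthase, log2FC -1.66, adjusted p 0.0311), Ndufs6 and Atp5e (log2FC -1.47, adjusted p 0.0298) had the largest differences, and Uqcrq, Uqcr10 and Atp5d were the others (edgeR). The median was -0.27 over members and 0.04 over all genes. Both comparisons use the same PFC libraries, and with libraries scaled by their total count alone they called 5 members lower and 3 higher in the striatum, and 3 lower and 1 higher in the hippocampus. With the animal as a block, where libraries of the same replicate number were taken as 1 animal, 4 members remained called lower in the striatum (Atp5d, Atp5e, Ndufb7 and Uqcr11) and 3 in the hippocampus (Ndufa2, Ndufs6 and Uqcr11). Leaving out the PFC library 5-1 left 5 called lower in each comparison, and leaving out the PFC library 4-3 left 4 in the hippocampus, while without the striatal library 5-3 there were 13 and without the hippocampal library 1-1 there were 19. The shares of all genes called in these alternative fits are not given here. A change in the members is therefore not told apart from a change in the whole fit. Uqcr11 stayed called in each of the 23 leave-one-out fits of both comparisons (highest adjusted p 0.00484 and 0.00376, edgeR), as did Ndufs6 (0.027 and 0.0195, edgeR) and Atp5d (0.0343 and 0.0467, edgeR). Of the others called lower in the striatum, Ndufv1 lost its call in 7 of the 23 fits (adjusted p up to 0.108, edgeR), Atp5e in 2, Ndufa2 in 1 and Ndufb7 and Uqcrq in 0. In the hippocampus Uqcr10 lost its call in 6 (log2FC from -1.53 to -0.845, adjusted p up to 0.15, edgeR), Atp5e in 3, Atp5k and Uqcrq in 2 each and Ndufa2 in 0. The 8 members lower in the hippocampus had a median exon length of 769 bases and the 71 with a length that were not called 1675 bases, whereas the 8 lower in the striatum had 1793 and the 69 not called 1587 bases. Ribosomal protein genes had medians of -0.42 (striatum) and -0.76 (hippocampus) against the PFC, with 8 and 15 of 76 called lower. Thalamus markers were called higher than in the PFC for 3 of 4 genes in the striatum (median log2FC 3.38) and 1 of 4 in the hippocampus (2.52), and choroid plexus markers for 1 of 2 (2.57) and 2 of 2 (3.45), while 1 of 4 neuron markers was called lower in each. Mitochondrially encoded genes had medians of 0.53 in the striatum and -1.02 in the hippocampus (1 of 10 called lower), and microglia and oligodendrocyte markers of -1.21 and -0.997 in the hippocampus with 0 called. The part of these lists in the members' values was not tested.

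Between the hippocampus and the striatum 0 of 80 members were called in either direction, beside 3.84% of all genes higher and 5.42% lower in the hippocampus. At an unadjusted p under 0.05, edgeR gave 2 members higher and 3 lower, beside 9.01% and 12.9% of all genes, and DESeq2 called 0. The median over members was -0.04 and that over all genes -0.08 on the log2 scale.

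The hypothalamus stood apart, with the reservation on its table given above. There 35 of 80 members were called lower than the mean of the other 3 regions, beside 23.4% of all genes, and 6 higher, beside 21.3%. The median log2FC was -0.68 over members and 0.00 over all genes, and -0.42 and 0.30 when libraries were scaled by their total count alone, which called 16 members lower and 7 higher. The share of all genes called under that scaling is not given here, so whether these counts exceed it cannot be read from them. Ndufs4, a complex I accessory subunit whose loss causes Leigh syndrome, had a median of 29.1 CPM in hypothalamic libraries (from 0 to 37.4), 94.6 in hippocampal ones (from 58.1 to 121), 75.6 in PFC ones (from 38.8 to 117) and 103 in striatal ones (from 82.1 to 137). No hypothalamic library reached the lowest library of any other region, and the log2FC was -1.81 (SE 0.169, adjusted p 3.09e-13, edgeR), the smallest p of any member. Cox7b2 (log2FC -2.29, adjusted p 0.00552), Ndufa5 (log2FC -1.83, adjusted p 4.66e-07), Uqcr11 (log2FC -1.80, adjusted p 0.000219) and Ndufs6 (log2FC -1.75, adjusted p 2.87e-05) were also lower by edgeR. Ndufa4l2 was called lower too (adjusted p 0.0388, edgeR), but was at 0 in all 11 hypothalamic libraries and had at most 0.21 CPM on average elsewhere, so no fold is given, and the call is uncertain.

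Among the 6 members called higher in the hypothalamus, Ndufs1, the largest core subunit of complex I, had a median of 83.9 CPM there (from 59.1 to 98.9) against 39.7 in hippocampal (from 6.97 to 58.5), 27.4 in PFC (from 10.9 to 58.1) and 42.0 in striatal libraries (from 29.0 to 53.9). Its hypothalamic values lay above every other library (log2FC 1.16, SE 0.162, adjusted p 3.27e-08, edgeR). Atp5o (the stalk subunit OSCP, log2FC 2.24, adjusted p 5.47e-06), Ndufb2 (log2FC 1.00, adjusted p 0.000434), Sdha (log2FC 0.78, adjusted p 0.000372) and Atp5sl (log2FC 0.59, adjusted p 0.0163) followed by edgeR. Atp5sl is named Dmac2 in the annotation used here and stands in complex V by its symbol alone. Cox6b2 (adjusted p 0.00363, edgeR) was called higher with a median of 0 CPM in the hypothalamus, again at counts too low for a firm call. The annotation used here holds 2 genes named Atp5o, so its value may mix them. The median exon length was 1478 bases for the 35 called lower, 4126 for the 5 of the 6 called higher that have a length and 1587 for the 39 not called, and over 79 members the log2FC had a Spearman rho of 0.54 with exon length, as a description. All 4 neuron markers were also lower in the hypothalamus (median log2FC -1.31), as were cytosolic ribosomal protein genes by their median (log2FC -0.52), while 3 of 4 thalamus markers (median log2FC 2.40) and 1 of 2 choroid plexus markers were called higher. The part of length or of these lists in the members' values was not tested.

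**Figure D1:**
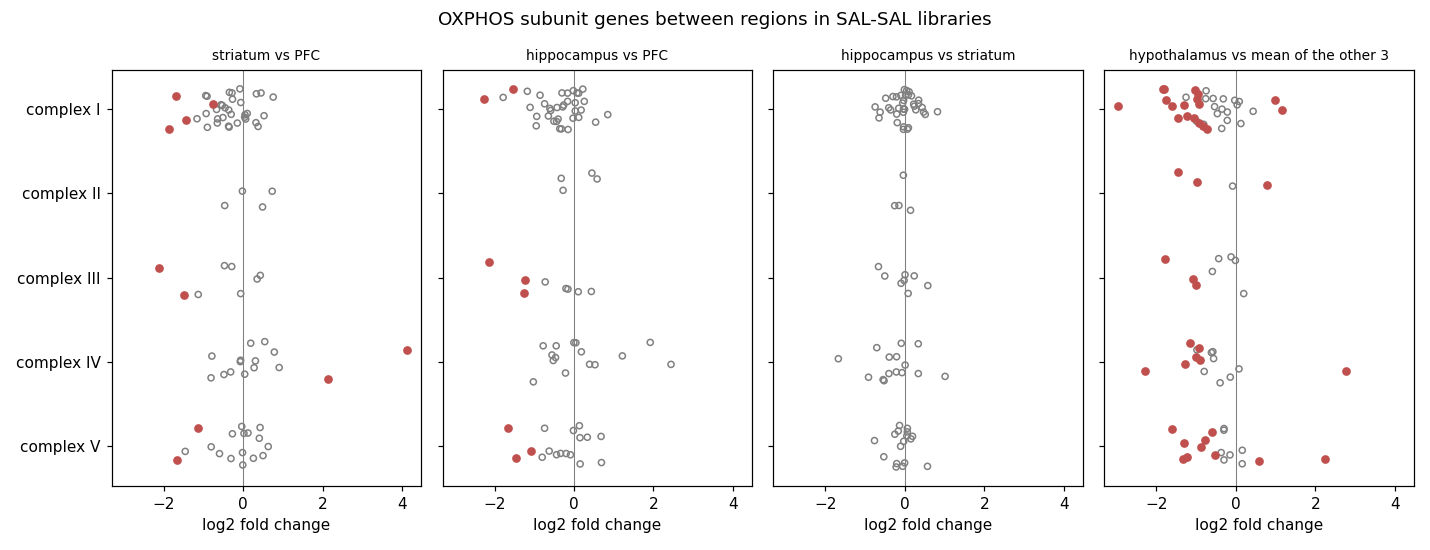
Each point is a member, placed by its log2FC (x axis) and its complex (rows), for 4 comparisons of SAL-SAL libraries, and filled points have an adjusted p under 0.05 (edgeR). The filled points lie mostly to the left. In the first 2 panels they are at lower levels than in the PFC (8 of 80 each, beside 6.21% and 7.72% of all genes). In the last they are lower in the hypothalamus (35 of 80, beside 23.4% of all genes), and the third has none (beside 3.84% of all genes higher and 5.42% lower). Members near 0 counts, such as Ndufa4l2 and Cox6b2, are drawn at their fitted values, which are no measured folds.

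The promoters of 4 members are shown for the regional results, namely those of Uqcr11, Ndufs6 and Atp5e, each called lower in the striatum and hippocampus than in the PFC in the fit without the animal block, and of Ndufs4, the member with the smallest p in the hypothalamus. With that block Uqcr11 was called in both comparisons, Ndufs6 in the hippocampus alone and Atp5e in the striatum alone. Each sequence is the RefSeq window of build GRCm38.p6 from 250 bases before to 50 bases after the gene's start, on the minus strand, at chr10:80406772-80407071 for Uqcr11, chr13:73328433-73328732 for Ndufs6, chr2:174464052-174464351 for Atp5e and chr13:114388045-114388344 for Ndufs4. Capitals mark matches on either strand to the ETS core CCGGAAG (bound by GABP), the NRF1 core GCATGCGC, the YY1 core AAGATGGC and the ERR element AAGGTCA, factors known for control of mitochondrial genes. CTTCCGG and TGACCTT are the first and the last of these read on the other strand.
Uqcr11: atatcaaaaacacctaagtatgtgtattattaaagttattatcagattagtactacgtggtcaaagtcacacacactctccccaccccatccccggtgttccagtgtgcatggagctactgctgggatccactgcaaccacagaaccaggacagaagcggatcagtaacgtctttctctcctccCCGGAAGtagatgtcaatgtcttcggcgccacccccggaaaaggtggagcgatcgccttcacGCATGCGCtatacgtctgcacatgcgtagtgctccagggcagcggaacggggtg
Ndufs6: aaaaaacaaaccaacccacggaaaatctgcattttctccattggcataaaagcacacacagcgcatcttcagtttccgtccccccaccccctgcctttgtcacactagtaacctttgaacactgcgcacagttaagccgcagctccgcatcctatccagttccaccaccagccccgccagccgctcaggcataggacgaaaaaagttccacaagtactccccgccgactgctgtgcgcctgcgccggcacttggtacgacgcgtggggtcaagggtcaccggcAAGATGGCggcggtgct
Atp5e: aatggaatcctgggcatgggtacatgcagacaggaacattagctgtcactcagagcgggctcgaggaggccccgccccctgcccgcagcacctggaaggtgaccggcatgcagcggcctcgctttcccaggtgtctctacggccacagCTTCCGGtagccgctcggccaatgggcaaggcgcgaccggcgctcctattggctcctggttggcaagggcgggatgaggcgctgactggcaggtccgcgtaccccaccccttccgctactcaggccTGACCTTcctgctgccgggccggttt
Ndufs4: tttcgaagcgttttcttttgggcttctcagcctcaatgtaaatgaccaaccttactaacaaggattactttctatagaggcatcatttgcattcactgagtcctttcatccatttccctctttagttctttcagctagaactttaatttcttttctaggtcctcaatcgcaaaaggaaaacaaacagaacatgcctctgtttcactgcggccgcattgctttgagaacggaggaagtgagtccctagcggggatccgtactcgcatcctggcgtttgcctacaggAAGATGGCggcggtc
Uqcr11 holds an ETS core and an NRF1 core, Atp5e an ETS core and an ERR element, and Ndufs6 and Ndufs4 each a YY1 core, whose first base is the 34th and the 36th after the start.

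Among the 71 promoters found for 66 member genes, 22.5% held the ETS core, against 8.86% of all 32851 promoters in the table. The NRF1 core was in 14.1% against 2.71%, the YY1 core in 12.7% against 2.75%, and the ERR element in 11.3% against 4.72%. The GC box GGGCGG was in 38.0% against 35.7% and TATAAA in 11.3% against 13.6%. Some letters can be shared by overlapping matches in these counts, and a match is a description of the sequence, not a measured binding site.

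Within a region, members rose and fell together from library to library. After low-depth libraries were left out, the correlation of a member with the mean of the other members across libraries had a median of 0.88 in the striatum (72 members, 54 libraries), 0.79 in the hippocampus (74 members, 53 libraries), 0.70 in the PFC (74 members, 45 libraries) and 0.61 in the hypothalamus (75 members, 48 libraries). Ndufa4 had the highest mean over regions (0.89). Cox7b2 went the other way in the striatum (-0.34), and the lowest means over the 4 regions were those of Atp5s (0.01), Ndufs1 (0.13, with 0.33 in the hypothalamus) and Ndufb2 (0.19, with 0.35 in the hippocampus). Atp5o differed between regions, with 0.86 in the hypothalamus, -0.05 in the hippocampus and 0.05 in the PFC. These are descriptions, in which points share depth and normalization.

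A library's member score, the mean log2 CPM over members with a mean of at least 5 CPM, followed the same score of cytosolic ribosomal protein genes with a Pearson r of 0.97 (Spearman rho 0.89) over 51 hypothalamic libraries, 0.98 (0.94) over 55 hippocampal, 0.79 (0.81) over 48 PFC and 0.96 (0.95) over 54 striatal libraries. Without the 2 libraries farthest from the median ribosomal score r was 0.91, 0.94, 0.78 and 0.95, and within single conditions it ran from 0.75 to 1.00 over the 4 regions. The score of OXPHOS assembly factors followed too (r 0.96, 0.87, 0.76 and 0.91 in the same order). With the summed CPM of mitochondrially encoded genes r was 0.53, 0.46, 0.51 and 0.68, and 0.43, 0.50, 0.47 and 0.68 without low-depth libraries. With the neuron marker score r was 0.82, -0.36, -0.54 and -0.51 in that order, and 0.21, -0.59, -0.55 and -0.51 without low-depth libraries. With the total count it was 0.86, 0.42, 0.07 and -0.47, and 0.23, -0.31, 0.17 and -0.47 without low-depth libraries. With the microglia marker score it was 0.51, 0.27, 0.33 and 0.52, and 0.15, 0.19, 0.30 and 0.52 without low-depth libraries.

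**Figure D2:**
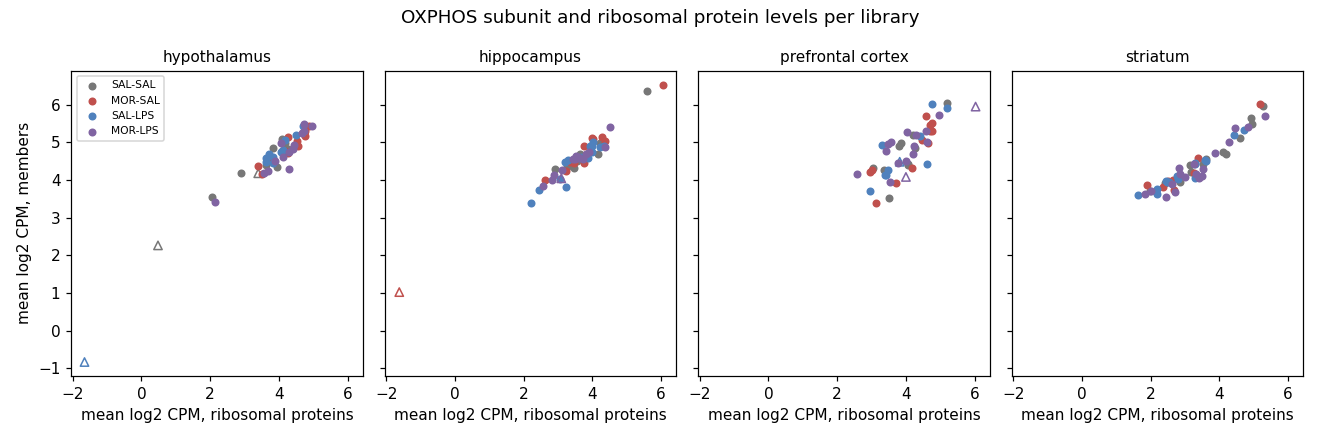
Each point is a library, placed by the mean log2 CPM of cytosolic ribosomal protein genes (x axis) and of members (y axis), colored by group and drawn as an open triangle where its depth is low. The points lie along a rising line in all 4 regions, most loosely in the PFC (r 0.79), and the lowest points of the hypothalamus and hippocampus are low-depth libraries.

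In the hypothalamus the group means of the member score were 4.31 ± 0.81 (SD, n = 11) in SAL-SAL, 4.91 ± 0.37 (n = 14) in MOR-SAL, 4.31 ± 1.65 (n = 12) in SAL-LPS and 4.72 ± 0.58 (n = 14) in MOR-LPS, and 4.56 ± 0.48 (n = 9) and 4.78 ± 0.32 (n = 11) in SAL-SAL and SAL-LPS without low-depth libraries. Hippocampal means ran from 4.46 ± 0.51 (SAL-LPS, n = 14) to 4.66 ± 0.55 (SAL-SAL, n = 13), PFC means from 4.69 ± 0.67 (SAL-SAL, n = 10) to 4.87 ± 0.56 (MOR-LPS, n = 16) and striatal means from 4.23 ± 0.51 (SAL-LPS, n = 15) to 4.68 ± 0.70 (SAL-SAL, n = 13). Without its low-depth library the hippocampal MOR-SAL group had 4.86 ± 0.68 (n = 11). The groups overlapped in every region. Single libraries stood out, with scores of 6.53 in the hippocampal MOR-SAL library 7-2, 6.37 in the hippocampal SAL-SAL library 1-1 and 6.01 in the striatal MOR-SAL library 17-2.

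**Figure D3:**
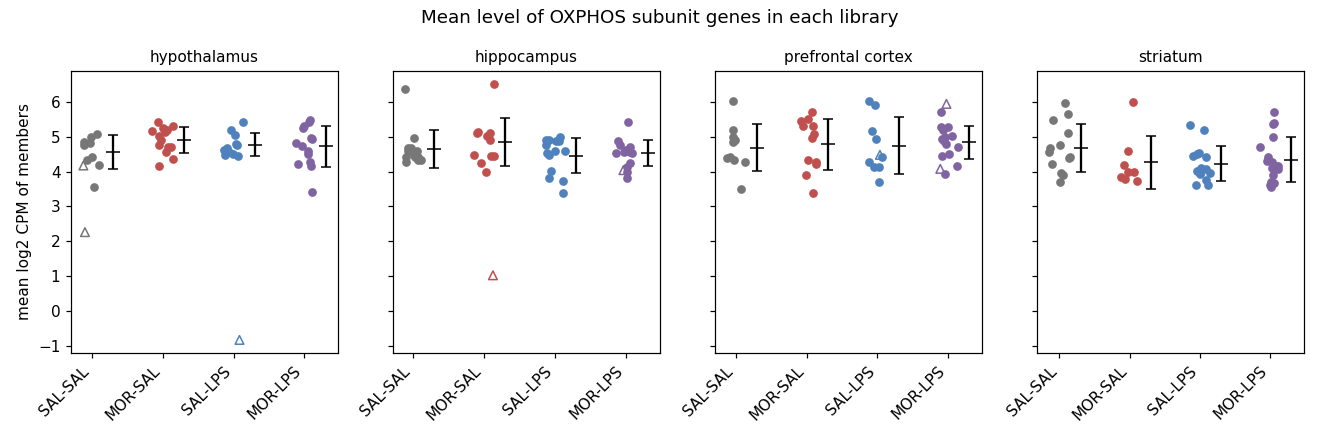
The mean log2 CPM of members (y axis) is shown for each library by group (x axis) in the 4 regions, with the mean and SD of libraries without low depth beside the points and low-depth libraries as open triangles. The groups overlap in every region, and the lone high points of the hippocampus and of striatal MOR-SAL are the libraries named in the text.

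Morphine exposure and LPS were compared within each region by 5 contrasts, which ask what exposure did at rest and under challenge, what LPS did after each exposure, and whether the LPS responses differed. Each region was fitted with its 4 groups and sex in edgeR, and CPM values from here on are normalized within a region. Of the 20 comparisons, 18 had 0 called members and the other 2, both in the hippocampus, had 1 each. The limma-voom fit with a litter correlation called 0 members in all 20, and DESeq2 called 1 in each of 3 comparisons, Cox6c in the hypothalamus, Ndufa5 in the hippocampus and Sdhc in the striatum, all in MOR-LPS against MOR-SAL. Over the 20 comparisons all genes, 21729 to 28859 tested in each, were called higher 3531 and lower 2670 times. Members, 80 to 83 tested in each, were called higher 1 and lower 1 time. The related lists did hardly more than the members, with 1 assembly factor (37 to 41 tested) and 2 ribosomal protein genes (76 to 85 tested) called higher, 1 mitochondrially encoded gene (10 to 12 tested) called lower, and 0 calls among complex I core subunits, electron carriers and transcriptional regulators (Ppargc1a, Nrf1, Gabpa, Tfam and others). Among the cell type markers, oligodendrocyte genes were called higher 13 times and lower 1 time, astrocyte genes higher 9 times, microglia genes higher 5 times, choroid plexus genes higher 1 and lower 3 times, thalamus genes higher 2 and lower 2 times, and neuron, endothelium and erythroid genes 0 times. Each of these marker lists had 2 to 5 genes tested per comparison. Levels of a gene in these nuclei reflect both how many cells of a type were sorted and how much RNA each held, which cannot be told apart.

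In the hypothalamus, MOR-SAL libraries differed from SAL-SAL in 0 of 83 members by adjusted p, beside 1.44% of the 28859 genes tested. At an unadjusted p under 0.05, 15 members (18.1%) were higher, beside 9.37% of all genes, and 1 was lower, beside 7.93%. They included Ndufa4, with 44.8 ± 21.4 CPM (n = 14) against 29.2 ± 19.8 (n = 11) and an adjusted p of 0.206 (edgeR), Cox7a2l (34.1 ± 13.9 against 20.4 ± 11.7 CPM, adjusted p 0.0968, edgeR), Ndufc2 (16.5 ± 8.51 against 7.66 ± 6.42 CPM, adjusted p 0.168, edgeR) and 5 complex V subunits, such as Atp5g2 (11.1 ± 2.96 against 6.32 ± 3.18 CPM, above the SAL-SAL median in 14 of 14 libraries, adjusted p 0.276, edgeR). The smallest adjusted p was that of Cox4i2 (0.0853, edgeR), with a median of 0 CPM in both groups. Cox4i1 had 77.9 ± 23.6 against 65.5 ± 23.7 CPM (adjusted p 0.578, edgeR) and Atp5b 397 ± 75.9 against 376 ± 139 CPM (adjusted p 0.837, edgeR).

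The 15 depended on few libraries. They became 9 without the SAL-SAL library 10-1, 8 without the SAL-SAL library 10-3, 5 without litter 10, and 2 without the 3 libraries that go against their labelled sex. Females alone gave 26 and males alone 1. The median log2FC was 0.29 over members, 0.07 over all genes and 0.49 over ribosomal protein genes. All 5 oligodendrocyte markers were lower at an unadjusted p under 0.05 in the same comparison (1 called, median log2FC -1.64), with a summed level from 74.2 to 6810 CPM in SAL-SAL (median 316) and from 55.8 to 594 CPM in MOR-SAL (median 301), and their part in the members' values was not tested.

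The other hypothalamic comparisons also called 0 of 83 members. MOR-LPS against SAL-LPS called 1.03% of all genes, with 1 member higher and 0 lower at an unadjusted p under 0.05 (edgeR), beside 7.63% and 6.27% of all genes. That member was Cox6a2, with a median of 0.781 CPM in MOR-LPS (from 0 to 3.81) and 0 in SAL-LPS (from 0 to 0.414) and an adjusted p of 0.0873 (edgeR). SAL-LPS against SAL-SAL called 0.246% of all genes, with 7 members higher (8.43%) and 1 lower (1.2%) at an unadjusted p under 0.05, beside 8.04% and 5.95% of all genes, and Ndufa4l2 had the smallest adjusted p (0.182, edgeR), with counts in 3 of 12 SAL-LPS and 0 of 11 SAL-SAL libraries.

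LPS after morphine gave the most calls in the hypothalamus, with 6.27% of all genes in MOR-LPS against MOR-SAL, yet edgeR called 0 members (1 by DESeq2, Cox6c), and 3 were higher and 3 lower by the unadjusted p, beside 11.7% and 8.85% of all genes. Ndufb5, an accessory subunit of the membrane arm of complex I, had 50.4 ± 16.7 CPM in MOR-LPS (n = 14, median 54.2) and 71.1 ± 17.6 in MOR-SAL (n = 14, median 74.1). No MOR-LPS library passed the MOR-SAL median, and the log2FC was -0.50 (SE 0.179, adjusted p 0.0759, edgeR). For the difference between the LPS responses 3.80% of all genes were called and 0 members, with 1 higher and 2 lower at an unadjusted p under 0.05, beside 7.96% and 7.69% of all genes. Cox6b1 had the smallest adjusted p (0.222, log2 difference -0.93, edgeR). In both of these contrasts all 5 oligodendrocyte markers were called higher, as were 4 and 2 of 5 astrocyte and 2 and 1 of 5 microglia markers, and their part in the members' values was not tested. Summed oligodendrocyte markers ran from 202 to 6110 CPM in MOR-LPS (median 484) and from 117 to 2480 CPM in SAL-LPS (median 317).

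In the hippocampus, MOR-SAL against SAL-SAL called 0% of the 22076 genes tested and 0 of 80 members (7 or 8.75% higher and 1 or 1.25% lower at an unadjusted p under 0.05, beside 5.51% and 4.78% of all genes, edgeR). Ndufa5, an accessory subunit near the quinone site of complex I, had the smallest adjusted p (0.226, edgeR), with 44.7 ± 33.8 CPM (n = 12) against 29.1 ± 19.8 (n = 13). SAL-LPS against SAL-SAL called 2.55% of all genes and 0 members (0 higher and 6 or 7.5% lower at an unadjusted p under 0.05, beside 9.03% and 8.43% of all genes, edgeR). The smallest adjusted p there was that of Cox7a1 (0.058, edgeR), with counts in 2 of 14 SAL-LPS and 8 of 13 SAL-SAL libraries.

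MOR-LPS against MOR-SAL called 0.467% of hippocampal genes and 1 of 80 members, Ndufa5, which was lower after LPS. Ndufa5 ran from 8.69 to 33.0 CPM in MOR-LPS (n = 16, median 24.8) and from 18.1 to 145 CPM in MOR-SAL (n = 12, median 33.4). No MOR-LPS library reached the MOR-SAL median, while the lower ends overlapped, and SAL-LPS (from 12.9 to 40.8, median 28.4) and SAL-SAL (from 15.2 to 92.0, median 25.2) lay in the same range. The log2FC was -0.98 (SE 0.238, adjusted p 0.0466, edgeR). The highest value, 145 CPM, was that of library 7-2, without which the log2FC was -0.59 and the adjusted p 0.179 (edgeR). The call was lost in 16 of the 28 fits that left out 1 library, and with the litter as a block (log2FC -0.60, adjusted p 0.632, edgeR).

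In the same comparison 30 of 80 members (37.5%) were lower at an unadjusted p under 0.05, beside 6.62% of all genes, and 1 was higher, beside 7.72%. They held 16 complex I, 4 complex III, 5 complex IV and 5 complex V genes and no complex II gene, among them Ndufb7 (19.5 ± 11.3 against 46.2 ± 71.4 CPM, adjusted p 0.072, edgeR), Cox8a (22.4 ± 14.1 against 48.5 ± 64.3 CPM, adjusted p 0.0759, edgeR) and Cox6a1 (35.8 ± 17.8 against 79.6 ± 141 CPM, adjusted p 0.0977, edgeR). The SDs in MOR-SAL exceeded the means for each of these. The count of 30 was 2 without the MOR-SAL library 7-2, and 1 without the 4 libraries that go against their labelled sex, 7-2 among them, where Ndufa5 had a log2FC of -0.58 (adjusted p 0.218, edgeR). With the litter as a block the count was 3. The median log2FC was -0.44 over members, 0.03 over all genes and -0.55 over ribosomal protein genes, of which 24 of 76 were lower at an unadjusted p under 0.05. Library 7-2 had the highest member score (6.53) and ribosomal protein score (6.06) of the hippocampal libraries and gave 0.957% of its counts to members.

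MOR-LPS against SAL-LPS called 2.73% of hippocampal genes and 1 member, Ndufa4l2, a relative of Ndufa4 that hypoxia induces, which was higher in MOR-LPS (adjusted p 0.0332, edgeR). It had 24 counts in all over 16 MOR-LPS libraries, so the call is uncertain, with 5, 12, 1 and 6 counts in libraries 6-2, 7-1, 13-0 and 8-3 and 0 in the other 12, and 1 count in 1 of 14 SAL-LPS libraries. The ratio of the pooled CPM was 23.0 with an exact 95% interval from 3.75 to 945, which covers counting error only. Ndufa4l2 had 30 counts over all hippocampal libraries and passed the filter of a total above 10 only through the 24 of MOR-LPS. The call, the ratio and the interval thus come from a gene selected through the group where it is high, and are no support for a difference. Both groups had a median of 0 CPM. The call was lost without library 7-1 (adjusted p 0.303, edgeR), which left 12 counts against 1. Glial markers moved in the same comparison, with 5 of 5 oligodendrocyte markers higher at an unadjusted p under 0.05 (1 called) and 3 of 4 microglia markers (1 called), and summed oligodendrocyte markers from 227 to 3740 CPM in MOR-LPS and from 153 to 491 CPM in SAL-LPS. Their part in the Ndufa4l2 counts was not tested. DESeq2 gave no adjusted p for the gene, and 2 members were higher and 1 lower at an unadjusted p under 0.05, beside 9.59% and 7.40% of all genes.

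The difference between the hippocampal LPS responses was called for 2.35% of all genes and 0 of 80 members (1 higher and 5 lower at an unadjusted p under 0.05, beside 6.96% and 5.80% of all genes, edgeR, and 0 called by DESeq2). Ndufa4l2 had the smallest adjusted p (0.0513, edgeR), again as a gene that passed the count filter only through MOR-LPS. The median over members was -0.19 and that over all genes 0.01 on the log2 scale, and without the libraries that go against their labelled sex they were 0.14 and 0.06, so the direction turned. Ndufa4 had hippocampal group means from 24.5 ± 12.3 CPM (SAL-LPS, n = 14) to 44.4 ± 64.7 CPM (MOR-SAL, n = 12), and Atp5b from 229 ± 96.3 CPM (SAL-LPS) to 309 ± 156 CPM (MOR-SAL), with overlapping ranges.

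**Figure D4:**
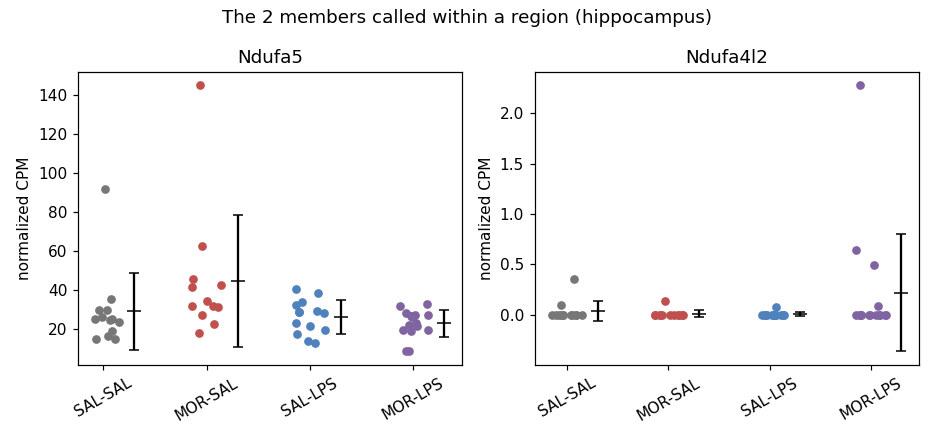
Normalized CPM (y axis) of Ndufa5 and Ndufa4l2 is shown for each hippocampal library by group (x axis), with the mean and SD beside the points. The highest Ndufa5 value, 145 CPM, is 1 MOR-SAL library, and Ndufa4l2 is above 0 in 4 of 16 MOR-LPS libraries.

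In the PFC, 0% of the 21729 genes tested were called in MOR-SAL against SAL-SAL, 0.00460% in MOR-LPS against SAL-LPS, 0% in SAL-LPS against SAL-SAL, 0.0184% in MOR-LPS against MOR-SAL and 1.78% for the difference between the LPS responses, with 0 of 80 members in each by edgeR, DESeq2 or limma-voom. At an unadjusted p under 0.05, edgeR gave 1 member higher and 1 lower in the first (beside 5.44% and 4.61% of all genes), 1 lower in the third (beside 6.91%) and 0 in the others (beside 3.80% to 9.23%). Ndufa10, an accessory subunit of complex I, had 72.3 ± 38.8 CPM in SAL-LPS (n = 10, median 55.1) and 107 ± 39.4 in SAL-SAL (n = 10, median 105), with a log2FC of -0.59 (SE 0.228, adjusted p 0.213, edgeR), and the smallest adjusted p for the difference as well (0.446, edgeR). Cox6b2 (0.304), Ndufc2 (0.393) and Atp5k (0.478) had the smallest adjusted p (edgeR) in MOR-SAL against SAL-SAL, MOR-LPS against SAL-LPS and MOR-LPS against MOR-SAL. Ndufa4 had group means from 44.7 ± 31.4 (SAL-SAL, n = 10) to 53.4 ± 50.5 CPM (SAL-LPS, n = 10), and Atp5b from 187 ± 85.5 (MOR-SAL, n = 12) to 246 ± 120 CPM (SAL-SAL, n = 10).

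In the striatum, MOR-SAL against SAL-SAL and MOR-LPS against SAL-LPS each called 0% of the 23426 genes tested and 0 of 81 members (0 higher and 4 lower, and 0 higher and 1 lower, at an unadjusted p under 0.05, edgeR). The shares of all genes at that threshold were 4.21% higher and 7.24% lower in the first and 7.76% and 3.46% in the second. Atp5s, a factor linked to ATP synthase, had the smallest adjusted p in the first (0.367, edgeR), with 10.7 ± 1.88 CPM (n = 8) against 13.7 ± 3.41 (n = 13), and Cox7b2 in the second (0.382, edgeR), with 7.96 ± 4.60 CPM (n = 18) against 13.4 ± 10.3 (n = 15). MOR-LPS against MOR-SAL called 1.39% of all genes and 0 members by edgeR (0 higher and 2 lower at an unadjusted p under 0.05, beside 12.1% and 5.69% of all genes). Sdhc, a membrane anchor of complex II, came nearest, with 19.6 ± 4.93 CPM (n = 18) against 29.6 ± 16.5 (n = 8), a log2FC of -0.55 (SE 0.163) and an adjusted p of 0.0659 (edgeR), and was called by DESeq2.

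SAL-LPS against SAL-SAL called 0.0128% of striatal genes and 0 of 81 members (0 by DESeq2 and limma-voom), but 25 members (30.9%) were lower at an unadjusted p under 0.05, beside 5.84% of all genes, and 0 higher, beside 5.87%. Atp5e had the smallest adjusted p (0.154, edgeR), with a median of 2.33 CPM in SAL-LPS (n = 15, from 0.608 to 6.90) and 3.80 in SAL-SAL (n = 13, from 1.02 to 19.1). Ndufa4 ran from 5.15 to 70.3 CPM in SAL-LPS (median 18.0) and from 11.9 to 190 CPM in SAL-SAL (median 32.7), with a log2FC of -1.02 (SE 0.493, adjusted p 0.405, edgeR). The ranges overlapped for both. Atp5b had 164 ± 146 CPM against 260 ± 198 CPM. The count was 10 for complex I, 0 for complex II, 4 for complex III, 5 for complex IV and 6 for complex V.

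Ribosomal protein and mitochondrially encoded genes also had medians below 0 in that comparison, in which no member was called. The median log2FC was -0.41 over members, -0.76 over ribosomal protein genes (29 of 77 lower at an unadjusted p under 0.05), -2.64 over 12 mitochondrially encoded genes (11 lower at an unadjusted p under 0.05) and 0.01 over all genes. The summed mitochondrially encoded level ran from 36.3 to 698 CPM in SAL-LPS (median 152) and from 76.1 to 6620 CPM in SAL-SAL (median 567). The 25 became 4 without the SAL-SAL library 4-3, 6 without 5-3 and 11 without 3-0, which had the 3 highest member scores of their group (5.477, 5.963 and 5.655), from 13 to 16 without single SAL-LPS libraries (1-2, 1-4, 3-3, 9-1, 10-2 or 11-0), and 40 without the SAL-LPS library 9-3. With the litter as a block the count was 38, and 0 were called.

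The difference between the striatal LPS responses was called for 0.00854% of all genes and 0 of 81 members (2 higher and 0 lower at an unadjusted p under 0.05, beside 10.2% and 4.63% of all genes, edgeR, and 0 called by DESeq2 and limma-voom). The log2 difference was above 0 for 74 of 81 members, with a median of 0.39 against 0.12 over all genes, and of 0.96 over ribosomal protein genes. All 5 oligodendrocyte, 4 astrocyte and 4 microglia markers tested were also higher at an unadjusted p under 0.05, with summed oligodendrocyte markers from 155 to 5080 CPM in MOR-LPS, from 164 to 1140 in MOR-SAL, from 172 to 988 in SAL-LPS and from 159 to 4670 in SAL-SAL. Their part in the members' values was not tested. Cox6b2 had the smallest adjusted p among members (0.234, edgeR), with a median of at most 0.244 CPM in each group.

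**Figure D5:**
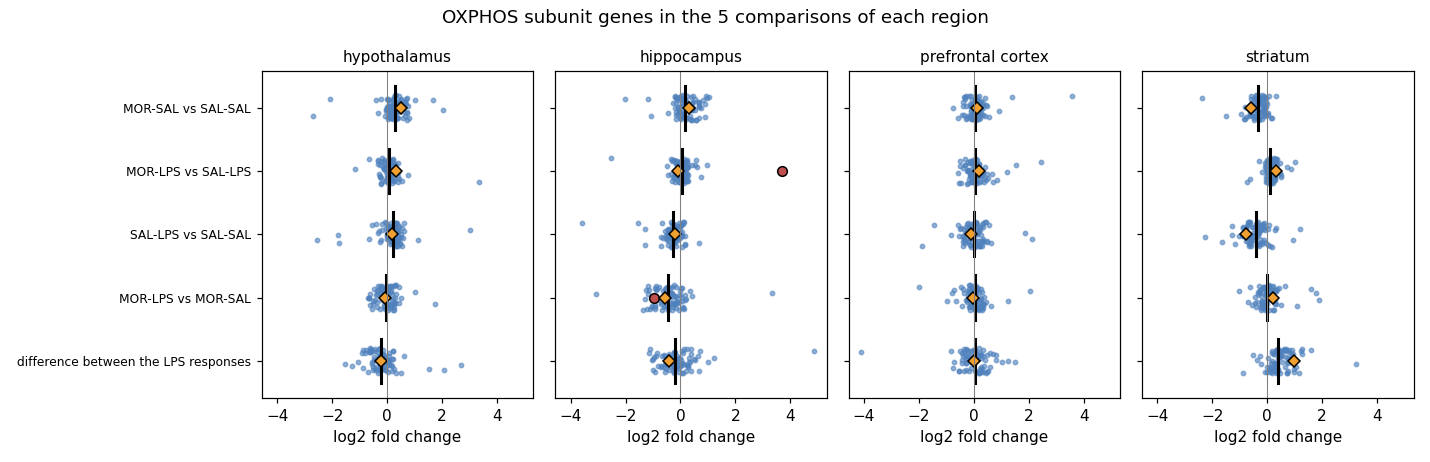
Each small point is a member, placed by its log2FC (x axis) in 5 comparisons (rows) for each region, with the members' median as a black bar, the median of ribosomal protein genes as a diamond, and the 2 called members, both in the hippocampus, as large red points. The members' medians lie between -0.44 and 0.39, and those of ribosomal protein genes lie farther from 0 in the hippocampal MOR-LPS against MOR-SAL and the striatal SAL-LPS against SAL-SAL comparisons.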

How the data were processed

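Nuclear RNA of NeuN+ nuclei was sequenced by a modified Smart-seq3 protocol with tagmentation. Per the submitters' processing notes the authors used Trim Galore 0.6.7, STAR 2.7.10a, HTSeq 0.12.4, DESeq2 1.40.2 and mm10, and the study's methods name GENCODE vM25. How strand was used is not given in the sources used here, so overlapping and antisense genes are uncertain, and so are members with near-identical copies. The authors deposited raw counts per gene, 1 table per region, which were used here. The CPM tables the authors deposited were not used.

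Members and lists were chosen with earlier results of these data known. Counts were fitted per region in R 4.3.3 with edgeR 4.0.16 (TMM, genes with a total count above 10, the 4 groups and sex, glmQLFit and glmQLFTest), with Benjamini-Hochberg adjustment over all genes tested and a threshold of 0.05. Standard errors come from the fitted log2FC and its F statistic. SAL-SAL libraries of the 4 regions were fitted together in the same way. Scores are means of log2 CPM with a prior count of 1. Exon lengths are from GENCODE M21 (83 of 84 members matched), where 28 members overlap another gene and 4 of them on the same strand. Promoters are from RefSeq.

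Named were Ndufa4, Cox4i1 and Atp5b, called members, the member with the smallest adjusted p where none was called, the 5 largest called differences per direction between regions, tissue isoforms, and the highest and lowest members per complex. Ndufb4b and Ndufb4c were not analysed here. The level of 1 further member is not reported here.

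Alternatives were DESeq2 1.42.0, limma 3.58.1 voom with a litter correlation, filterByExpr, RLE size factors, library size alone, removal of low-depth libraries or of litter 10, each sex alone, and litter or animal as a block. Chosen after seeing the data were each library left out in turn, removal of libraries whose Y-linked counts go against their labelled sex, and counts at an unadjusted p. The study's sample list gives the replicate names in the labels as litter and then individual, so libraries with the same first number were taken as 1 litter and libraries of several regions with the same name as 1 animal, although the litter counts the study states differ from those of these names. Correlations within litters were -0.049, -0.003, 0.004 and 0.029 in the hypothalamus, hippocampus, PFC and striatum, and 0.009 within animals over the regions. The name 15-2, labelled female, had 142 CPM of the Y-linked genes in the PFC and was not discordant in the other regions. Whether all libraries of such a name are of 1 animal is therefore uncertain. No SAL-SAL library was among the discordant ones. No 2 libraries of a region were identical. The fits were tested on simulated counts, where most calls of unchanged genes lay at low mean counts. The limit given for a gene without counts is 3 counts of the summed totals, which covers counting error only.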

Additional observations from a re-analysis of the deposited data

Results flagged for a closer look

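The 3 groups of 4 to 10 libraries, striatal MOR-SAL, PFC SAL-SAL and PFC SAL-LPS, were searched for a single library far from the others in 5 measures each (the member score, Ndufa4, Atp5b, Ndufa5 and Ndufa4l2). For values with a normal spread, chance would meet the search in about 1 of 20 sets. CPM values are skewed and Ndufa4l2 is mostly at 0, so this rate does not hold for them. In all, 9 of the 15 sets met it, which cannot be set against that rate. The measures of a group also share their libraries and are not independent. In the striatal MOR-SAL group (n = 8) library 17-2 was the highest with a member score of 6.014 (next 4.584), 169 CPM of Ndufa4 (next 35.8), 512 CPM of Atp5b (next 192) and 75.2 CPM of Ndufa5 (next 34.3). Library 8-0 of the same group had 0.116 CPM of Ndufa4l2 and the others 0. In the PFC SAL-SAL group (n = 10) library 4-3 was the highest with 118 CPM of Ndufa4 (next 69.7) and 83.7 CPM of Ndufa5 (next 40.2), and library 1-1 had 1.93 CPM of Ndufa4l2 where the others had 0. In the PFC SAL-LPS group (n = 10) library 11-0 had 3.2 CPM of Ndufa4l2 (next 1.1). Groups of over 10 libraries, the hippocampal MOR-SAL group of library 7-2 among them, were not searched.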

How the results depend on the processing

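No called member changed the sign of its difference under the alternatives run, but most calls within regions depended on the processing. The cause was not tested in any case unless fewer libraries or genes are named. Counts of members in this section stand without the share of all genes under the same setting. They do not tell a change in the members from a change in the whole fit. In the hippocampus the single call in MOR-LPS against SAL-LPS became 0 under DESeq2, limma-voom, filterByExpr and in each sex alone, and ran from 0 to 1 when single libraries were left out (Ndufa4l2 log2FC from 1.98 to 4.23). That in MOR-LPS against MOR-SAL became 0 under limma-voom, filterByExpr, library size alone, without low-depth libraries, in each sex alone and without sex-discordant libraries, and ran from 0 to 2 with 1 library left out (Ndufa5 log2FC from -1.05 to -0.59). Calls of 1 appeared in hippocampal SAL-LPS against SAL-SAL without low-depth libraries (Ndufa6), in the hippocampal difference with library size alone (Ndufa4l2), in hypothalamic MOR-LPS against MOR-SAL under DESeq2, library size alone, without low-depth libraries and in males alone, and in striatal MOR-LPS against MOR-SAL under DESeq2. With 1 library left out, hypothalamic MOR-SAL against SAL-SAL and striatal SAL-LPS against SAL-SAL stayed at 0 called members.

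For members at an unadjusted p under 0.05, the 15 of the hypothalamus became 9 with RLE factors, 24 with library size alone, 26 in females, 1 in males, 2 without sex-discordant libraries and 5 without litter 10, and ran from 8 to 20 with 1 library left out. The 30 of the hippocampus became 6 under limma-voom, 4 in males and 1 without sex-discordant libraries, and ran from 2 to 37. The 25 of the striatum became 13 under limma-voom, 16 with filterByExpr, 14 with library size alone, 7 in females and 2 in males, and ran from 4 to 40.

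Between regions, members called higher in the striatum than in the PFC (2) became 4 under DESeq2, 1 with filterByExpr and 4 without low-depth libraries and ran from 1 to 4 with 1 library left out, and those called lower (8) became 5 with library size alone and ran from 5 to 13. In the hippocampus against the PFC, members called higher (0) became 1 under DESeq2, with library size alone and without low-depth libraries and ran from 0 to 2, and those called lower (8) became 3 with library size alone and ran from 4 to 19. The 35 called lower in the hypothalamus became 16 with library size alone, which moved the median of all genes from 0.00 to 0.30. The same scaling moved that median from 0.13 to 0.26 (members -0.21 to -0.05) in the striatum and from 0.04 to 0.21 (members -0.27 to -0.06) in the hippocampus against the PFC, and within regions it moved the members' median past 0 in the hippocampal difference (from -0.19 to 0.02, all genes 0.19) and in striatal MOR-LPS against MOR-SAL (from -0.02 to 0.18, all genes 0.29).

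With the litter as a block (paired fits of the LPS contrasts), the hippocampal call in MOR-LPS against MOR-SAL became 0 and its 30 became 3, and the 25 of the striatum became 38. With the animal as a block, members called lower than in the PFC became 4 in the striatum and 3 in the hippocampus. The block changed no other count of called members by over 1.5 times. Depth limits the members near 0 counts, such as Ndufa4l2, which was above 0 in 17 of 54 libraries in the striatum and in fewer in each other region.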
